A study of Mus musculus with 8 samples.

Results

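Mof heterozygous and wild type progenitor cells from the plate2 libraries were compared, well position by well position. The cells were sorted from mouse bone marrow, and RNA of each well was counted with CEL-Seq2, which tags every captured transcript with a molecular identifier. The groups were 2 wild type libraries (numbers 13 and 14 in their titles) and 2 libraries of genotype Mof -/+ (15 and 16), labelled as haematopoietic progenitor cells. No label gives age, sex, strain, the kind of Mof allele or the gate of a well, and nothing ties the libraries of a genotype to separate animals. All p-values therefore rest on library-to-library spread alone, which can be technical. Members were the wells among a library's own 96 barcodes (the set of 96 with more transcripts) that held at least 1000 transcripts outside spike-in rows. These were 186 wells of 384, with 54 and 41 for wild type against 45 and 46 for heterozygotes. The whole series holds 436 barcodes at that depth out of 1536.

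Mof is the older name of Kat8. It encodes a lysine acetyltransferase that adds acetyl groups to histone H4 tails and works inside the MSL and NSL complexes, the latter at promoters of housekeeping genes. Blood progenitors pass from stem cells to megakaryocyte, erythroid and granulocyte-monocyte fates, each with its own transcription factors and products. The comparison asks what loss of 1 copy of Mof changes in these cells.

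A plate position, from 1 to 16, recurred 6 times among the barcodes of a library. The design text states 768 cells over several gates, and the position stood in for the gate because no well is labelled. Summed erythroid markers, such as Gata1, Klf1 and the carbonic anhydrase gene Car1, lay between 3571 and 9736 CPM (counts per 1000000 transcripts) at positions 1, 3, 4, 5, 10, 11, 12 and 16. Position 16 also held late erythroid genes at 22529.5 CPM, globins among them. Granule protease genes of neutrophil progenitors (Mpo, Elane, Prtn3 and others) reached 17119.5 CPM at position 9 and 1984 CPM at position 2. Stem cell markers, such as Procr and Hlf, lay between 1304 and 2046 CPM at positions 6, 7, 14 and 15, and pooled megakaryocyte genes were highest at positions 6, 7 and 13. The megakaryocyte lead at position 6 came from heterozygous library 16 (2208 CPM) and that at position 7 from heterozygous library 15 (2390 CPM). In the other libraries, both wild type ones among them, stem cell markers led positions 6 and 7. Position 8 was led by mature neutrophil genes at 63921 CPM, a cell type outside the progenitor gates that the design text lists. All 10 erythroid and all 8 stem cell markers were detected in every library. B cell, T and NK cell and mast cell markers stayed at or under 326 CPM at every position, but only 2 of 5 T and NK cell and 3 of 5 mast cell and basophil markers had a row in the plate2 files. Cd3e, Trbc2, Klrd1, Prss34 and Fcer1a had none.

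The stand-in was imperfect. Of 61 combinations of library and position, 47 were led by the marker set that leads the position over all libraries. At position 12 the summed erythroid markers were 1918 and 1140 CPM in the wild type libraries and 8132 CPM in heterozygous library 16. At position 1 the single kept well of wild type library 13 held no erythroid marker transcript. Holding the position therefore leaves differences of cell makeup within a position, and their part in the results was not tested.

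**Figure D1:**
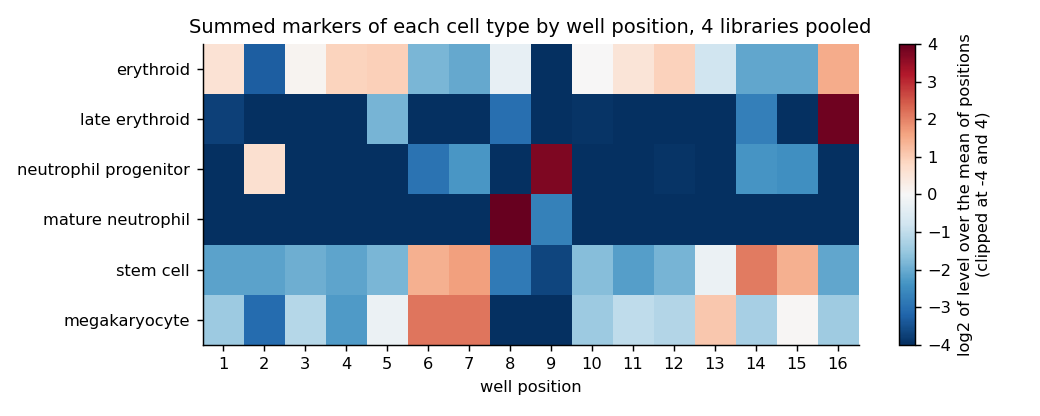
Summed level of 6 marker sets (rows) at the 16 well positions (columns), 4 libraries pooled, as the log2 ratio to the set's mean over positions (colour, clipped at -4 and 4). Late erythroid genes concentrate at position 16, neutrophil progenitor genes at position 9 and mature neutrophil genes at position 8.

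Every position had kept wells in both genotypes and 13 of them in all 4 libraries. Wild type library 14 had no kept well at position 9, and heterozygous library 15 had none at positions 12 and 16. Transcripts over kept wells came to 721312 in library 13, 419917 in library 14, 627203 in library 15 and 678528 in library 16. The median well held 9864 and 9018 transcripts in wild type against 10015 and 12531 in heterozygotes, a ratio of 1.19 (exact permutation p = 0.333, the smallest that 2 against 2 libraries can give). Wild type library 13 and heterozygous library 16 used the same 96 barcodes, 28 of them kept in both, as did wild type library 14 and heterozygous library 15, with 21 kept in both. The wild type library titles and file names carry crossed numbers (13 and 14), and the titles were followed.

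Kat8 itself was sparse and did not follow the genotype labels. Kat8 transcripts numbered 10 and 4 in wild type (13.9 and 9.53 CPM) against 9 and 12 in heterozygotes (14.4 and 17.7 CPM), in 3 to 11 wells of a library. The counts overlapped, but relative to depth both heterozygous libraries lay above both wild type ones, also with position held (14.3 and 10.2 CPM for wild type, 14.4 and 16.7 CPM for heterozygous libraries). The log2 fold change (heterozygous relative to wild type) was 0.22 ± 0.52 (SE, n = 2 libraries per genotype), with a 95% interval from -0.79 to 1.23. The SE, here and below, is worked back from the edgeR test statistic, which borrows dispersion across genes, and is not the spread of the libraries. The Kat8 value comes from the fit without a count filter, since Kat8 fell under the filter. Its lower bound of -0.79 lies above the change that losing 1 of 2 equally used copies would give. The interval uses a normal quantile on few transcripts and 2 libraries per genotype, so it may be too narrow to exclude that change. No label says which part of the gene the allele alters, so a count of transcript ends is no check of the genotype, and every direction below rests on the genotypes as labelled. Of the partner subunits in the MSL and NSL complexes, 11 were tested and none passed. The NSL scaffold gene Kansl1 stood at 0.65 (edgeR adjusted p = 0.376) and Hcfc1, a host cell factor that joins several chromatin complexes, at -0.39 (adjusted p = 0.633).

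With position held, few genes rose in heterozygous wells and more fell, most of the latter repeat-like gene models and neutrophil genes. Of 7594 genes tested with edgeR, 9 rose (0.119%) and 78 fell (1.03%) at an adjusted p under 0.05, and 608 stood at an unadjusted p under 0.05. With position held, the libraries of the genotypes did not overlap for 27.6% of genes in the higher direction and 12.1% in the lower. Of the 78 genes, 43 were predicted models, 9 belonged to the mature neutrophil list, and Lyz1, S100a6, Hbb-bs and mt-Nd6 are described with their groups, which leaves 22 other genes. The median log2 fold change over all tested genes was 0.04, and 4122 of the 7594 (54.3%) had a positive one, the share to set beside each count of positive genes below. Heterozygous library 16 weighed most, for without it 5 rose and 11 fell. Without wild type library 13 it was 48 and 67, without wild type library 14 it was 3 and 50, and without heterozygous library 15 it was 12 and 88.

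**Figure D2:**
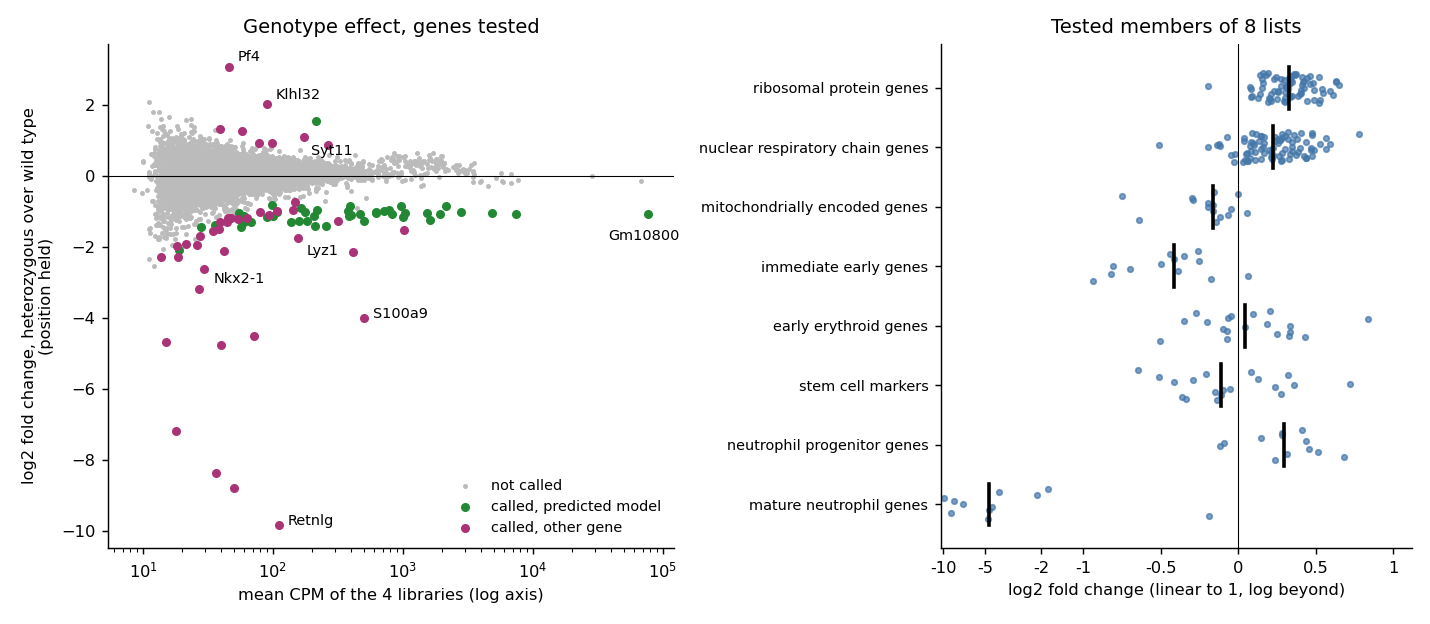
Left, log2 fold change of heterozygous relative to wild type wells with position held (y) against mean CPM (x, log axis) for every gene tested, with called predicted models in green and other called genes in purple. Right, log2 fold change of the tested members of 8 lists, with a bar at the median. Called models form a band near -1, neutrophil genes lie furthest down, and most ribosomal protein and respiratory chain genes lie to the right of 0.

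Klhl32 rose in many wells. It encodes a kelch-like protein of a family that serves as substrate adaptors of ubiquitin ligases, and lies on chromosome 4 (24612554 to 24851124, minus strand, GRCm38). The wild type libraries held 22 and 14 Klhl32 transcripts (31.6 and 36.7 CPM with position held) and the heterozygous libraries 97 and 96 (136 and 150 CPM). Both heterozygous libraries lay far above both wild type ones. Klhl32 was seen in 14 of 54 and 10 of 41 wild type wells, and in 24 of 45 and 28 of 46 heterozygous wells, with no more than 11 transcripts in any well. The log2 fold change was 2.01 ± 0.25 (SE, n = 2, edgeR adjusted p = 1.1e-07), and pooled levels were higher in heterozygotes at 15 of 16 positions. Single libraries departed from this: heterozygous library 15 held no Klhl32 transcript at positions 1, 13 and 14, and 3 transcripts in 1 well of wild type library 13 came to 356 CPM at position 1. Klhl32 passed under all 18 alternatives that could be fitted, at 1.74 to 2.17, including DESeq2 and the omission of any library. An antisense gene, Gm11899, overlaps Klhl32 on the opposite strand, and since no source here says whether counting used strand, their reads cannot be told apart.

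Klhl32 rose in separate groups of positions as well. At the erythroid positions without position 8 its counts were 8 and 9 in wild type against 64 and 43 in heterozygotes, a log2 fold change of 1.92 ± 0.35 (edgeR adjusted p = 0.0079). At the stem cell and megakaryocyte positions, joined after seeing the data, the counts were 9 and 4 against 17 and 36, and the fold change of 2.26 ± 0.50 did not pass (adjusted p = 0.102). The difference between the effects was -0.35 ± 0.72 on the log2 scale (edgeR adjusted p = 1.0), so none was detectable.

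Gm43541 followed the same course. It is a transcript model of the class still to be tested experimentally, on chromosome 5 (122567524 to 122568104, minus strand, GRCm38) that lies inside the intraflagellar transport gene Ift81 on the same strand, and it was named after its values were seen. Its counts were 78 and 40 in wild type against 222 and 207 in heterozygotes, or 112 and 97.3 against 336 and 309 CPM with position held, without overlap. It was seen in 28 and 21 wild type wells and in 38 wells of each heterozygous library, and rose by 1.53 ± 0.20 (edgeR adjusted p = 2.6e-07). It rose at the erythroid positions without position 8 (1.27 ± 0.22, adjusted p = 0.0055) and at the joined stem cell and megakaryocyte positions (1.99 ± 0.34, adjusted p = 0.0055).

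**Figure D3:**
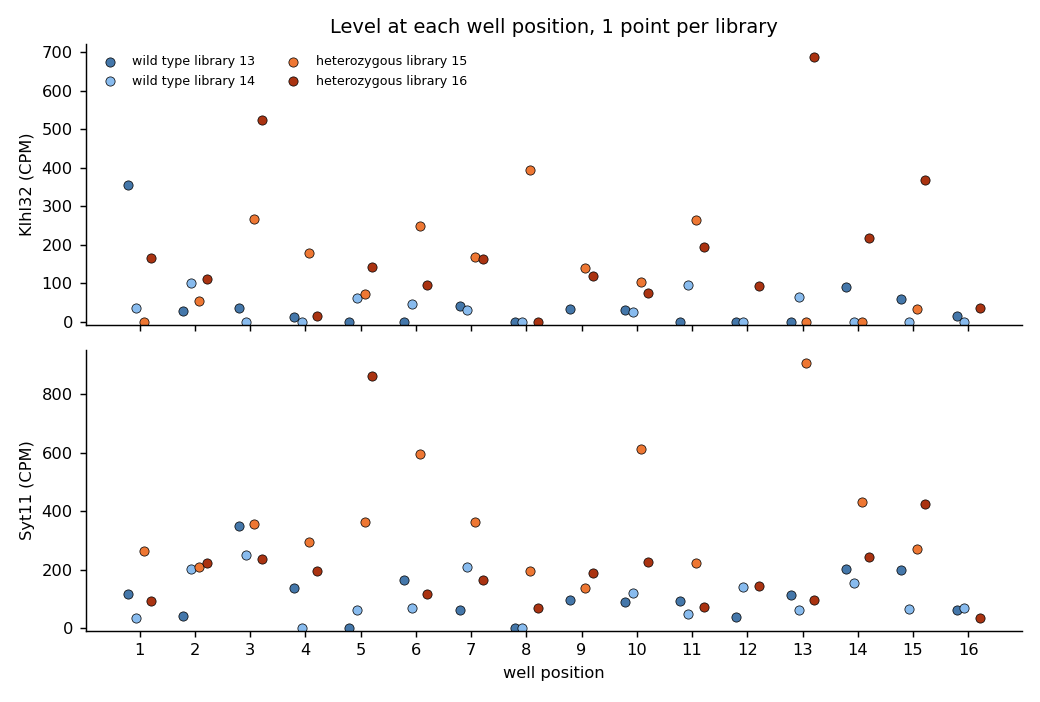
Level in CPM (y) of Klhl32 (top) and Syt11 (bottom) at each well position (x), with 1 point per library, wild type in blue and heterozygous in orange and red. Heterozygous points lie above wild type ones at most positions, with single points at 0 where few transcripts were counted.

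Syt11 and Gon4l, which rose too, lie near each other on chromosome 3 (88744700 to 88775164, minus strand, and 88835231 to 88910103, plus strand, GRCm38), with 60066 bases between them. Syt11, a synaptotagmin gene of vesicle traffic, held 81 and 40 transcripts in wild type against 191 and 124 in heterozygotes, in 34 and 21 wells against 40 and 38. With position held, its level was 118 and 92.6 CPM in wild type and 283 and 194 CPM in heterozygotes, and the groups did not overlap. The rise was 1.08 ± 0.21 (edgeR adjusted p = 0.00058), seen at 14 of 16 positions. Without wild type library 14 it was 0.88 (adjusted p = 0.232), without heterozygous library 15 it was 0.73 (adjusted p = 0.141), and with DESeq2 the adjusted p was 0.141. Gon4l, which encodes a nuclear regulator of transcription and overlaps the antisense gene Gm43713, had counts of 13 and 10 against 37 and 37. It rose by 1.32 ± 0.34 (edgeR adjusted p = 0.029), at 13 positions, and passed under 10 of 18 alternatives.

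The other risers passed under fewer alternatives. Cyba, a membrane subunit of the phagocyte NADPH oxidase, had counts of 25 and 8 against 67 and 47, and rose by 1.25 ± 0.29 (edgeR adjusted p = 0.0094). Trib2, a pseudokinase gene of the tribbles family, had 44 and 25 against 81 and 98, and rose by 0.91 ± 0.23 (adjusted p = 0.025). Cyba and Trib2 passed under 10 of 18 alternatives each. Pfdn6, a prefoldin subunit, rose by 0.91 ± 0.24 (adjusted p = 0.0398) and passed under 5 of 18, with no call when any library was left out. Rpl13a-ps1, a processed pseudogene whose reads may be shared with Rpl13a and its copies, rose by 0.88 ± 0.23 (adjusted p = 0.034) and passed under 7 of 19.

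Pf4, the platelet factor 4 chemokine of megakaryocytes, rested on single wells. Its counts were 4 and 9 in wild type against 56 and 45 in heterozygotes, for a log2 fold change of 3.06 ± 0.36 (edgeR adjusted p = 1.7e-08). A well at position 7 held 53 of the 56 transcripts in heterozygous library 15 and 1 at position 6 held 36 of the 45 in library 16. Pf4 was seen in 3 and 6 wild type wells and in 4 and 5 heterozygous wells, ranges that overlap. Without the top well of each library it could not be fitted under the count filter. Of the 9 megakaryocyte genes tested, Pf4 alone passed, and Itga2b, the platelet integrin chain, stood at 0.60 (adjusted p = 0.582). The list's median was 0.36, against 0.04 over all genes.

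Genes of mature neutrophils fell furthest, and they did so at a single position. Of 11 tested members of the list, 9 fell over all genes, and the list's median log2 fold change was -4.70. Members with few or no heterozygous transcripts, such as Retnlg and Lcn2, passed the count filter only through the wild type libraries. The list's count and median are therefore no support beyond the single genes. Retnlg, a resistin-like peptide gene of granulocytes, had 135 and 107 transcripts in wild type against 0 and 0 in heterozygotes. S100a9, a subunit of calprotectin, had 802 and 343 in wild type against 47 and 5 in heterozygotes, a fall of -4.01 ± 0.38 (edgeR adjusted p = 1.5e-11). Lcn2, a siderophore-binding lipocalin, had 83 and 36 against 0 and 0, and Mmp8, the neutrophil collagenase gene, 107 and 54 against 3 and 3. Ngp, Camp, Ltf and Mmp9, all granule genes, and S100a8, the other calprotectin subunit, made up the rest. S100a8 had 582 and 260 against 134 and 3, and without heterozygous library 16 it stood at -0.85 (adjusted p = 0.299), while without wild type library 14 it stood at -2.38 (adjusted p = 0.482). The calcium-binding protein gene S100a6 (35 and 40 against 7 and 8) and the lysozyme gene Lyz1 (158 and 117 against 39 and 40), outside the list, fell too.

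Position 8 had 7 kept wells in wild type and 5 in heterozygotes. In wild type library 13, mature neutrophil transcripts took 15.7%, 7.08%, 22.8% and 0.346% of the 4 wells. In wild type library 14 they took 5.18%, 18.6% and 5.30% of the 3 wells. In heterozygous library 15 the 3 wells held 0.265%, 0.152% and 0.0890%, and in library 16 the 2 wells held 0 of 13476 transcripts, which allows a share of up to 0.0223%, and 0.551%. Thus 6 of 7 kept wild type wells and 0 of 5 kept heterozygous wells held at least 10 transcripts of the list, while 1 wild type well lay among the heterozygous ones. Wells below the depth minimum can be too shallow to reach 10. Among those at position 8, wild type wells held 4 to 9 list transcripts. In heterozygotes a well of library 15 held 4 of 67 transcripts (5.97%) and a well of library 16 held 7 of 154 (4.54%). The other heterozygous ones held 0 or 1. The count of kept wells therefore does not show that neutrophil transcripts were absent from heterozygous wells at position 8.

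The kept wells of the genotypes at position 8 also differed in depth. Wild type wells held 2313 to 5142 transcripts (median 3028). Of the heterozygous wells, 4 held 1090 to 2248 and the other, in library 16, held 13476 transcripts, with 115 of erythroid markers and none of the neutrophil list. Summed over wells, the list took 12.1% of 23557 transcripts in wild type (exact Clopper-Pearson 95% interval 11.7% to 12.5%) and 0.0713% of 19642 in heterozygotes (0.0390% to 0.120%). These intervals cover counting error only, and most of the 19642 transcripts came from the well with 13476. Mitochondrially encoded transcripts made up 3.13% to 19.9% of the wild type wells and 7.45% to 36.9% of the heterozygous ones. Depth, mitochondrial share and cell content differed together here, and their part in the result was not tested. Fewer neutrophils in the sorted position and less RNA per neutrophil cannot be told apart.

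**Figure D4:**
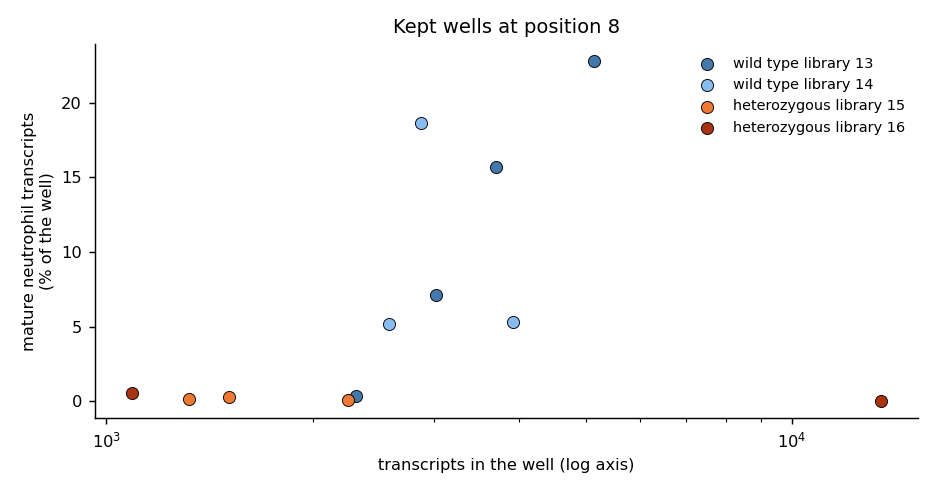
Share of mature neutrophil transcripts (y, % of the well) against transcripts in the well (x, log axis) for the 12 kept wells at position 8, coloured by library. Of the wild type wells 6 of 7 lie between 5.18% and 22.8%, and the 5 heterozygous wells lie at or under 0.551%.

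Gene by gene at position 8, Retnlg had 240 transcripts in wild type and 0 in heterozygotes, so it was at least 66.7-fold lower relative to all transcripts against a floor of 3 counts over the heterozygous wells. Lcn2 (116 against 0) was at least 32.2-fold lower and Ngp (89 against 0) at least 24.7-fold lower. S100a9 had 1134 against 1 in heterozygotes, a ratio of 946 with an exact counting interval from 169 to 37378, and S100a8 836 against 4. All these folds count the well of library 16 rich in erythroid markers, which gave 13476 of the 19642 heterozygous transcripts. Without that well they would be smaller. Elsewhere the list was scarce in both genotypes, at 0.0117% of transcripts in wild type and 0.0253% in heterozygotes, the latter mainly from a well of library 15 at position 9 with 186 such transcripts. Without position 8, 1 gene of the list could be tested and it did not pass. Lyz1 then stood at -0.19, against -1.76 with position 8 included. Over all genes, 8 then rose and 57 fell.

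Genes of neutrophil progenitors did not pass in either direction. Of 12 tested, 10 were positive, with a median of 0.30. The myeloperoxidase gene Mpo stood at 0.44 ± 0.21 (edgeR adjusted p = 0.596), the elastase gene Elane at 0.52 (adjusted p = 0.704) and proteinase 3, Prtn3, at 0.41 (adjusted p = 0.690). Nearly all of these transcripts lay at position 9, where wild type library 14 has no kept well: Elane counted 206 and 1 in wild type against 454 and 163 in heterozygotes, of which 205, 0, 444 and 162 at position 9. A single well held 152, 274 and 48 of the Elane transcripts in wild type library 13 and heterozygous libraries 15 and 16. Myeloid transcription factors and receptors had 3 of 14 positive and a median of -0.25, with none passing. Irf8, a monocyte and dendritic cell factor, stood at -0.60 (adjusted p = 0.269).

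Predicted gene models made up the largest share of the genes that fell. Of 497 tested, 1 rose and 43 fell, with falls of -2.10 to -0.83 and a median of -1.09 among the 43. Many of the 43 share stretches of sequence with each other. Transcripts in the GENCODE annotation were compared by shared 25-base words on either strand. Of 42 fallen models with a transcript, 37 (88.1%) shared at least 50 such words with a single other fallen model. The other sets were scored more loosely, against all fallen models together. They were not compared among themselves, so the shares do not show that fallen models are more repetitive than other models. Among tested genes that did not fall, 212 of 7282 (2.91%) reached 50, as did 47 of 406 other tested models (11.6%). So did 4 of 31 other fallen genes (12.9%). The 4 are Hsd3b2 (532 words), Dpp10 (403), Grk4 (235) and Olfr613 (216). Reads that fall inside shared stretches cannot be assigned to 1 locus, so the models are reported as families and not as separate genes. Much of a model can lie outside such stretches: Gm37324 shared at most 111 of its 4223 words with any other fallen model, and Gm10800 163 of 500.

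The abundant family joins Gm10800 with 5 further models. Gm10800 lies on chromosome 2 (98666547 to 98667301, minus strand, GRCm38), and its annotated transcript is 660 bases long. Gm26870 (3000282 to 3038313, minus strand), Gm10719 (3017408 to 3021593, plus strand), Gm10717 (3025417 to 3033289, plus strand) and Gm10715 (3036877 to 3038316, plus strand) lie at the start of chromosome 9, and Gm21738 on chromosome 14 (19415857 to 19418930, minus strand). The longest stretches that Gm10800's transcript shares with 3 of them are shown because reads that fall inside them cannot be told apart. Capitals mark a core of 51 bases common to the Gm10800, Gm10715, Gm10717, Gm10719 and Gm26870 transcripts, which was found in no other tested gene. Each is written 5′ to 3′ on the strand of Gm10800, and Gm26870 holds it in the opposite orientation.
Gm10719: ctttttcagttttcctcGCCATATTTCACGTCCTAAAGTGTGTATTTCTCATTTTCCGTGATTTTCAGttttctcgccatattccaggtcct
Gm26870: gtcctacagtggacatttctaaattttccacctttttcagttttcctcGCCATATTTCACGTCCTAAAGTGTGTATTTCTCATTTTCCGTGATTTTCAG
Gm21738: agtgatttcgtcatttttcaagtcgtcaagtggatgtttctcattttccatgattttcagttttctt
In Gm10800 the stretches span bases 74 to 165, 268 to 366 and 592 to 658 of the transcript, and the Gm21738 stretch lacks the core. This sequence is known as the major satellite of mouse, the tandem repeat of pericentromeric heterochromatin.

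The Gm10800 family took 11.1% and 14.7% of all transcripts in wild type against 5.76% and 4.12% in heterozygotes. Gm10800 alone counted 70077 and 53445 transcripts in wild type against 31220 and 24214 in heterozygotes, or 94998 and 102922 against 61221 and 36307 CPM with position held. The genotypes did not overlap, and heterozygous library 16 was the lowest. The fall was -1.09 ± 0.17 on the log2 scale (edgeR adjusted p = 1.2e-05, n = 2), with the pooled level lower at 15 of 16 positions. The median well was lower at 13 of 16 and higher at positions 3, 13 and 15. Gm26870 fell by 1.08 ± 0.18 (adjusted p = 5.1e-05), from counts of 7236 and 4769 to 3069 and 2293.

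The call for Gm10800 depended on the test and on 1 library. Without heterozygous library 16 the log2 fold change was -0.65 (adjusted p = 0.408), and it was -1.10 with DESeq2 (adjusted p = 0.452), -1.03 with limma (adjusted p = 0.0625) and -0.81 with wells thinned to 1000 transcripts (adjusted p = 0.170). The share of Gm10800 also moved with depth. Across the 186 wells its Spearman correlation with the number of transcripts was -0.49, a description of wells that share libraries. The median well held 6.87% and 9.05% Gm10800 in wild type against 4.47% and 3.31% in heterozygotes. Among wells with at least 5000 transcripts the medians were 6.69% and 8.54% against 3.60% and 3.11%, again without overlap, and the fall was -1.09 (adjusted p = 0.00066).

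A second family of 29 models, Gm21833, Gm17555 and Gm26905 among them, took 2.81% and 3.11% of transcripts in wild type against 1.35% and 1.16% in heterozygotes. The members' log2 fold changes ran from -1.45 to -0.83, with a median of -1.08. 

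The 22 other genes that fell run from -3.19 to -0.96, with a median of -1.41. Several are not blood genes, such as Nkx2-1, a transcription factor of thyroid and lung, Klk14, a kallikrein protease of skin, Olfr613, an odorant receptor whose transcript shares words with the fallen models, and Slc10a2, the ileal bile acid transporter. Klk14 counted 19 and 31 in wild type against 2 and 3 in heterozygotes, a fall of -3.19 ± 0.55 (edgeR adjusted p = 8.5e-05). Nkx2-1 counted 15 and 36 against 3 and 5, a fall of -2.62 ± 0.50 (adjusted p = 0.00058). Cd274, which encodes the checkpoint ligand PD-L1, counted 22 and 24 against 7 and 4, a fall of -1.95 ± 0.46 (adjusted p = 0.011). Together the 22 genes made up 2779 and 3270 CPM in wild type and 1101 and 1012 CPM in heterozygotes. Their summed level followed that of Gm10800 from well to well. Over the 148 wells with at least 5000 transcripts the Spearman correlation was 0.85, and for the other fallen models it was 0.97. These are descriptions, since the points share libraries and total depth and the genes were chosen for their fall.

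**Figure D5:**
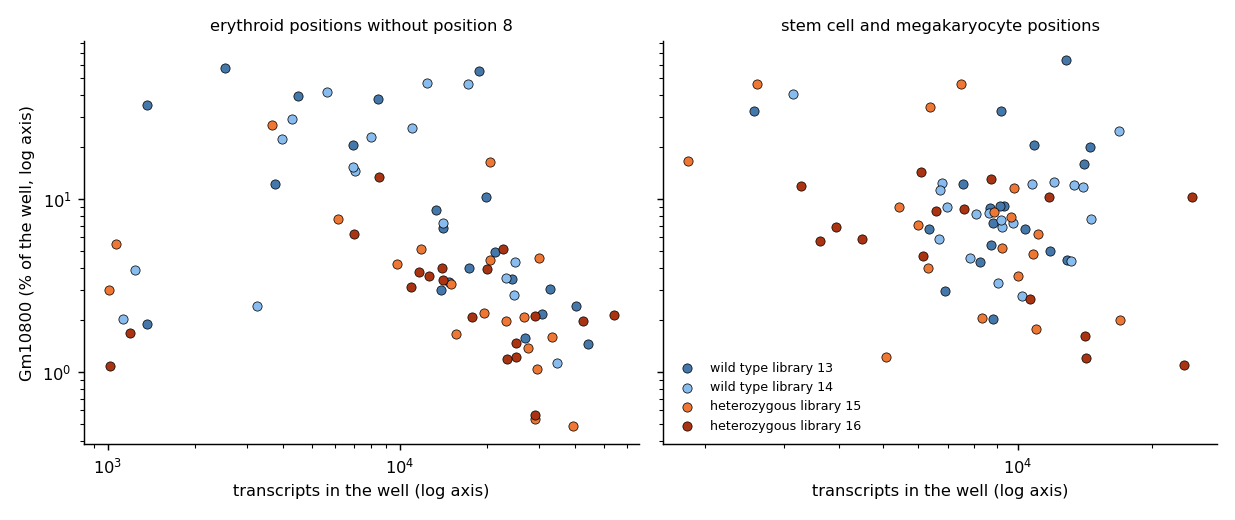
Share of Gm10800 (y, % of the well, log axis) against transcripts in the well (x, log axis) for kept wells at the erythroid positions without position 8 (left) and the stem cell and megakaryocyte positions (right), coloured by library. Shares fall with depth on the left, and the colours are further apart on the left than on the right.

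The fall of Gm10800 was larger at the erythroid positions without position 8 than at the stem cell and megakaryocyte positions. The difference was 1.02 ± 0.20 on the log2 scale in an interaction test chosen after seeing the data (edgeR adjusted p = 0.0041). Without wild type library 14 the difference was 0.44 in the same direction (adjusted p = 0.566), and without heterozygous library 15 or heterozygous library 16 that test called no gene in either direction. At the 9 positions that the marker rule called erythroid, 5341 genes were tested, 2 rose (0.0374%) and 99 fell (1.85%), of which 52 were predicted models. The 9 include position 8, since the rule held no mature neutrophil set, and 10 of the 99 were mature neutrophil genes. Mature neutrophil genes summed to 63921 CPM at position 8 and erythroid markers to 2795 CPM. By library, the erythroid markers there stood at 141 and 213 CPM in wild type and at 394 and 7876 CPM in heterozygotes. Without position 8, 5230 were tested, 2 rose (0.0382%) and 70 fell (1.34%), of which 49 were predicted models. There, Gm10800 took 8.40% and 14.3% of transcripts in wild type against 3.29% and 2.69% in heterozygotes, a fall of -1.73 ± 0.30 (edgeR adjusted p = 0.0050). The median wells were shallower in wild type, at 14808 and 7992 transcripts against 20364 and 17682, and the part of that in the result was not tested.

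At the 3 positions that the marker rule called megakaryocyte, 1393 genes were tested, Pf4 alone rose (0.0718%, 3.82 ± 0.51, edgeR adjusted p = 1.3e-05) and none fell, with 55 at an unadjusted p under 0.05. Pf4 belongs to the marker set that named these positions, and its richest wells, at positions 6 and 7, helped to select them. Its rise there is therefore no separate result. With the stem cell and megakaryocyte positions joined, 2902 genes were tested and 3 rose (0.103%), namely Pf4, Gm43541 and the beta globin gene Hbb-bt, and none fell, with 117 at an unadjusted p under 0.05. Hbb-bt (3.15 ± 0.57, adjusted p = 0.0096) counted 5 and 2 in wild type against 15 and 36 in heterozygotes, but few wells held it. In heterozygous library 16, 33 of the 36 lay at position 14, with 19 in 1 well, and in library 15 a well at position 6 and a well at position 7 held 7 each. Gm10800 took 14.8% and 10.3% there in wild type against 9.40% and 6.25% in heterozygotes. Its change of -0.72 ± 0.21 did not pass (adjusted p = 1.0). Median wells were shallower in heterozygotes there, at 8596 and 7586 transcripts against 9109 and 9202, and kept wells summed to 146814 and 149170 against 181588 and 197001. The part of that in the result was not tested.

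Early erythroid genes and erythroid transcription factors showed no shared shift over all positions. Of 19 early erythroid genes tested 10 were positive, with a median of 0.04, and of 12 erythroid transcription factors 8 were positive, with a median of 0.10. None passed. At the erythroid positions without position 8, 1 of 7 globin and late erythroid genes was positive (median -0.39). Of 8 haem synthesis genes 3 were positive there (median -0.16), against a median of 0.06 over all genes. No gene of these 2 lists passed there. Car1, an early erythroid carbonic anhydrase, counted 648 and 425 in wild type against 1111 and 1132 in heterozygotes, or 1042 and 1267 against 1496 and 1539 CPM with position held. It stood at 0.33 ± 0.17 (edgeR adjusted p = 0.636). Gfi1b, a repressor needed for erythroid and platelet cells, stood at 0.51 (adjusted p = 0.583).

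Beta globin Hbb-bs passed as lower, but on very few wells. Its counts were 644 and 95 in wild type against 6 and 88 in heterozygotes, groups that overlap with position held. The log2 fold change was -1.27 ± 0.31 (edgeR adjusted p = 0.016). Single wells at position 16, which heterozygous library 15 lacks, held 526, 94 and 73 of the transcripts in the other 3 libraries. Over the positions present in all 4 libraries the change was 0.12 (adjusted p = 0.995), and with limma it was 1.93.

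Stem cell markers did not pass. Of 19 tested 7 were positive, with a median of -0.11. Gata2, a transcription factor of early progenitors, counted 143 and 136 in the wild type libraries against 111 and 106 and stood at -0.43 ± 0.19 (edgeR adjusted p = 0.516). Its libraries did not overlap between the genotypes with position held, yet it did not pass.

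Ribosomal protein and respiratory chain genes leaned upward without any gene passing. Of 73 ribosomal protein genes tested, 72 were positive and none passed, with a median of 0.33 against 0.04 over all genes. Their share of transcripts was 10.9% and 8.71% in wild type against 13.6% and 13.5% in heterozygotes. Rps18, of the small subunit, counted 826 and 308 in wild type against 1046 and 1106 in heterozygotes. It stood at 0.63 ± 0.18 (edgeR adjusted p = 0.062). The ribosomal median lay between 0.19 and 0.57 under the alternatives, and 21 of the genes passed without wild type library 13. Of 85 nuclear genes of the respiratory chain, 76 were positive and none passed, with a median of 0.23, and Uqcr11, a subunit of complex III, stood at 0.78 ± 0.23 (edgeR adjusted p = 0.110).

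Mitochondrially encoded genes did not share the upward lean. Of 15 tested, 1 was positive and 1, mt-Nd6, fell, with a median of -0.16. The complex I subunit mt-Nd6, the one messenger on the light strand, counted 141 and 71 in wild type against 81 and 67 in heterozygotes. It fell by 0.75 ± 0.20 (edgeR adjusted p = 0.039) and passed under 6 of 18 alternatives. The 15 genes took 14.6% and 14.6% of transcripts in wild type against 13.4% and 15.1% in heterozygotes, so the shares overlapped.

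Immediate early genes, which cells switch on within minutes of a stimulus or of handling, leaned downward. Of 13 tested, 1 was positive (54.3% over all genes) and none passed, with a median of -0.41. Ier2 counted 38 and 19 in wild type against 11 and 31 in heterozygotes. It stood at -0.69 ± 0.33 (edgeR adjusted p = 0.596). Egr1 counted 23 and 7 against 4 and 12, and stood at -0.82 ± 0.51 (adjusted p = 0.749). The genotypes overlapped for both genes.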

How the data were processed

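Transcripts were counted by CEL-Seq2. Reads were aligned with BWA 0.6.2-r126 to mm10, per the submitters' processing notes. Annotation, counter and strand setting: not given in the sources used here. Values in the deposited files are estimated counts per gene and barcode, whole molecular identifiers corrected by the authors for collisions among 4096 barcodes (tested on the values). Spike-in rows were left out. Each group has 2 libraries. Kept wells were summed per library and rounded, and edgeR 4.0.16 (R 4.3.3) tested the sums with TMM factors, filterByExpr, the quasi-likelihood test and Benjamini-Hochberg adjustment. Position was held by an offset per gene and library, the count expected from the pooled share of the gene at each position, so folds can be understated where genotypes fill positions unequally. Errors are standard errors worked back from the edgeR test statistic (absolute log2 fold change over the square root of F). They borrow dispersion across genes, so they are not the spread of a gene over its libraries or wells.

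Alternatives were DESeq2 1.42.0, limma 3.58.1 (log2 CPM, pseudocount 5), RLE size factors, other filters and depths, thinning, the barcode set as a block and leaving out libraries. Named genes were Kat8, up to 10 per direction that passed with separate libraries and at least 20 mean CPM, up to 4 of smallest p per list (29 lists), and the 3 models with most transcripts. Members and lists were chosen with earlier results of these data known. No doublet caller was run on sorted wells. The tests were also run on simulated data in which all wells of a position had the same makeup. Such data cannot show how the tests behave where wells of a position differ, as they do here. Transcripts and coordinates are those of GENCODE for GRCm38.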

Additional observations from a re-analysis of the deposited data

Results flagged for a closer look

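The genotype effect was compared between the erythroid positions (without position 8) and the joined stem cell and megakaryocyte positions, with library as a block in edgeR, a test chosen after seeing the data. Of 4323 genes, 32 had a lower effect at the erythroid positions (0.740%) and 1 a higher one, and 216 stood at an unadjusted p under 0.05. Of the 32, 25 were predicted models. Gm26870 differed by -1.36 and Gm10800 by -1.02 ± 0.20 on the log2 scale (edgeR adjusted p = 0.0041). Without heterozygous library 15 or heterozygous library 16, 0 genes passed in either direction with edgeR, with 190 and 159 at an unadjusted p under 0.05. Without wild type library 13 it was 52 lower and 1 higher, without wild type library 14 it was 14 and 2 with Gm10800 at -0.44 (adjusted p = 0.566), and with wells of at least 5000 transcripts it was 6 and 0, where Gm10800 had an adjusted p of 0.133.

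Outside the repeat models, Hbb-bt differed by -3.77 ± 0.58 (edgeR adjusted p = 0.00051), the cyclin gene Ccna2 by -3.67 ± 0.91 (adjusted p = 0.042) and the glutathione transferase gene Gstm1 by 4.39 ± 1.05 (adjusted p = 0.028) in the same comparison. Ccna2 did not pass under any of the 5 alternatives of this comparison, and Gstm1 passed under 1 of them, without wild type library 14 (adjusted p = 0.0082). Hbb-bt did not pass without heterozygous library 15 (adjusted p = 0.085) or without heterozygous library 16 (adjusted p = 1.0). On the erythroid side nearly all Hbb-bt transcripts lay at position 16 (461 and 87 in wild type, 143 in heterozygous library 16), which heterozygous library 15 lacks. On the other side 33 of 36 in heterozygous library 16 lay at position 14, 19 of them in 1 well.

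Signal also appeared among barcodes that are not a library's own. In those, 11 wells of wild type library 13, 4 of wild type library 14 and 3 of heterozygous library 15 reached 1000 transcripts, against 0 of heterozygous library 16. The other barcodes held 4.11%, 5.37%, 3.41% and 2.29% of the transcripts in libraries 13 to 16.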

How the results depend on the processing

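Over all genes, 9 rose and 78 fell. The counts were 3 and 28 with DESeq2, 4 and 46 with position not held, 0 and 8 with wells thinned to 1000 transcripts (edgeR, 526 genes tested, 68 at an unadjusted p under 0.05), 4 and 48 without wells of at least 10 mature neutrophil transcripts, and 5 and 38 with wells of at least 5000. With limma 34 rose and 93 fell, which made 73.2% of calls lower against 89.7%, and the median of all genes was 0.22. Without a count filter 17 rose. Leaving out a library gave 3 to 48 risers and 11 to 88 fallers. At the erythroid positions, 4 rose and 29 fell after thinning, and leaving out a library gave 5 to 65 and 61 to 111. At the megakaryocyte positions 2 rose with RLE size factors and 3 with the stem cell positions joined, and leaving out a library gave 1 to 3 risers and 0 to 2 fallers. Of the 87 called genes, 14 kept their call without heterozygous library 16. Hbb-bs reversed to 1.93 with limma and to 0.12 over positions present in all 4 libraries, and Ly6c2 to -2.46 with limma. The cause was not tested. Among named genes, 2865 comparisons with an alternative kept direction and call, 420 lost the call, 37 gained it and 3 reversed. Of the list medians, 406 moved by less than the spread used and 82 by more. The depth ratio was 1.24 with wells of at least 500 transcripts and 1.17 with at least 2000.

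The library numbers 13 to 16 are not shared between the genotypes, so the labels pair no libraries. Wild type library 13 shares its barcode set with heterozygous library 16, and wild type library 14 with heterozygous library 15, and no label ties a set to an animal or a day. With the barcode set as a replicate block in edgeR, 15 genes rose and 89 fell, the 9 and 78 among them. Thinning leaves few genes above the filter, and with 2 libraries per genotype a call rests on each of them. Alternatives without position 8, with wells of at least 5000 transcripts with joined positions and with the replicate block were chosen after seeing the data.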

Other observations

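The gene groups in this paragraph had no gene past the threshold except where named, and over all tested genes 54.3% were positive. Of 25 genes of Myc and ribosome biogenesis tested, 18 were positive, with a median of 0.12, and of 20 heat shock and chaperone genes 14 were positive, with a median of 0.07. Genes of S phase (12 of 25 positive, median -0.0038) and of mitosis (14 of 25 positive, median 0.07) lay around the value of all genes, as did cell cycle brakes (4 of 9, median -0.07), glycolysis (9 of 15, median 0.07), haem synthesis (4 of 9, median -0.07) and histone deacetylases (7 of 12, median 0.01). At the erythroid positions without position 8, S phase genes had 20 of 25 positive (median 0.18) and mitosis genes 7 of 24 (median -0.18). At the joined stem cell and megakaryocyte positions they had 7 of 20 (median -0.15) and 5 of 6 (median 0.61). All tested genes had medians of 0.06 and 0.0048 in those groups, and no gene of either list passed there. Of 11 histone acetyltransferase genes, 3 were positive, with a median of -0.08, and Kat2b, which encodes the acetyltransferase PCAF, counted 32 and 17 in wild type against 14 and 13 in heterozygotes (-0.81 ± 0.35, edgeR adjusted p = 0.484). Of 9 interferon response genes 4 were positive (median -0.11), of 6 MHC genes 5 (median 0.06), of 4 nuclear long noncoding RNAs 1 (median -0.21) and of 3 lymphoid markers 2 (median 0.28). Among 8 globin and late erythroid genes Hbb-bs fell and 3 were positive (median -0.18), and among 7 monocyte and dendritic markers Lyz1 fell and 5 were positive (median 0.20). No mast cell, basophil or eosinophil marker was abundant enough to test.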
